A study of Rattus norvegicus with 18 samples.

Results

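Gene expression in hypoxic tumour regions was set against that in normoxic regions of the same tumours. The comparison rests on the 6 tumour arrays among the 18 arrays of the study, chosen by the sample titles as hypoxic or normoxic in vivo samples and paired by tumour number, which gave 3 pairs. 9L is a rat gliosarcoma line, and the tumours grew in its isogenic host, male Fischer rats (F344/Ncr) inoculated when 6 weeks old. Per the labels, a flank tumour started the line of transplants, and the epigastric tumours came from passage 5 or 6 pieces tied onto an artery and its vein. The hypoxic group (n = 3) was captured by laser from areas positive for EF5, a drug whose reduced form is trapped in oxygen-poor cells, and the normoxic group (n = 3) from EF5-negative areas. As a comparison, 9L cultures were held at 0.2% oxygen or at about 20% oxygen. Exposures lasted 6 h or 16 h, and each of the 4 groups held 3 cultures. Captured tissue can hold host cells beside tumour cells, and cultures cannot. From each sample, 2 ng of total RNA was amplified before hybridization to Affymetrix Rat Gene 1.0 ST arrays. All values are log2 probe set signals, and a difference is the hypoxic value minus the normoxic value of one tumour, so that a difference of 1 is 2-fold.

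Cells short of oxygen stabilize the hypoxia-inducible factors (HIF), which bind a short core motif in DNA and raise transcription of genes for glucose use, vessel growth, pH control and mitochondrial turnover. Low oxygen also slows protein synthesis and calls on stress factors of the ATF and AP-1 families. In solid tumours hypoxic cells lie far from vessels, so a hypoxic region can differ from its neighbour in nutrients, host cells and proliferation as well as in oxygen.

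The label of the regions was checked against 3 fixed hypoxia markers. Car9, the carbonic anhydrase of the cell surface, had hypoxic signals of 9.85, 10 and 9.24 in tumours 1, 2 and 3, against 8.02, 8.19 and 7.07 in the normoxic regions. Bnip3, a mitophagy receptor of the mitochondrial outer membrane, stood at 10.13, 10.17 and 10.45 in hypoxic regions, against 6.01, 6.80 and 8.32 in normoxic regions. Vegfa, the vascular growth factor, stood at 9.31, 9.50 and 9.46 in hypoxic regions and at 7.26, 8.16 and 7.59 in normoxic regions. For each marker, every hypoxic region lay above every normoxic region. Of all genes, 17.2% had groups that did not overlap, in either direction. Among 9 glial and gliosarcoma markers, Vim averaged 12.32 in hypoxic and 12.05 in normoxic regions and Fn1 10.97 and 11.02, whereas Gfap, the astrocyte filament, was dim at 5.48 and 5.53.

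Hypoxic regions held more transcript of the HIF targets Bnip3, Car9 and Vegfa, of the glycolytic enzymes Aldoa and Pfkl and of the stress genes Atf3, Fosl1 and Hspb1 in all 3 tumours. They held less of the sliding clamp Pcna and the kinetochore gene Cenpk, of the mitochondrial carriers Slc25a40 and Ucp2, of the glycosylation gene Ost4 and of the leukocyte gene Ly6c. As means of 3 tumours, Bnip3 was 9.22-fold higher and Cenpk 4.63-fold lower. These are measured values, none past the paired test.

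No probe set passed the paired limma test at an adjusted p of 0.05 (0 of 27363, 0.0%), and the smallest adjusted p was 0.106. Without tumour 1, limma called 154 higher and 409 lower, and without tumour 2 or 3 it called 0. With all 18 arrays weighted by tumour or culture it called 49 higher and 251 lower of 27363 probe sets. Among them were 11 of the 15 leading higher and 14 of the 15 leading lower genes named further on. Those genes were ranked by the same tumour differences, which favours these counts. The 18-array fit takes part of its spread from the cultures. Arrays of a culture group correlated at 0.988 to 0.996, and those of a tumour group at 0.937 to 0.964. At unadjusted p below 0.05, limma found 937 probe sets higher in hypoxic regions (3.42%) and 1559 lower (5.7%). The values of single genes are therefore given as measured and not as calls, and with 3 pairs an exact test of one gene cannot go below p = 0.25. On simulated data with 200 changed probe sets, the same fit recovered 72.4% of true differences of 2 log2 units and 2% of those of 1. The simulated noise was independent between probe sets and held no shift of a whole array. The fit may therefore recover less in these data. The probe set with the smallest p has no gene name in the annotation. Its signal was 5.98, 4.17 and 4.14 in hypoxic regions, against 8.89, 7.42 and 7.79 in normoxic regions.

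The 3 tumours shared few differences. At least 2-fold differences in all 3 pairs were found for 27 probe sets higher in hypoxic regions (0.0987% of all) and 95 lower (0.347%), which are 18 genes (0.126% of genes) and 54 genes (0.377%). In single tumours the counts were larger, with 647, 695 and 610 probe sets at least 2-fold higher and 1171, 872 and 1869 at least 2-fold lower in tumours 1, 2 and 3. Across probe sets, the differences of tumours 1 and 2 correlated at r = 0.0970, those of tumours 1 and 3 at 0.256 and those of tumours 2 and 3 at 0.153. These correlations are across probe sets, which are not independent replicates. The normoxic array of tumour 3 stood apart, with a correlation of 0.941 with the normoxic cultures, against 0.865 to 0.892 for the other 5 tumour arrays. Its SD over probe sets was 1.92, and theirs were 1.76 to 1.79.

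Direction also went with brightness. Of the dimmest 25% of probe sets, 29.4% were higher in hypoxic regions in all 3 tumours and 4.24% lower. Of the brightest 25%, 16.5% were higher and 19.7% lower. Over all probe sets the shares were 22.9% (6278) and 11.0% (3001), and the median difference of all probe sets was 0.10 as deposited, 0.05 after median centring and 0.05 after quantile normalization. Small positive medians of dim gene lists are to be read against this: 46 of 53 olfactory receptor genes, whose mean signal was 4.71 to 4.83 in hypoxic and 4.46 to 4.69 in normoxic regions, were higher on average, with a median difference of 0.158. Whether probe brightness has a part in the values of the gene lists was not tested.

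**Figure D1:**
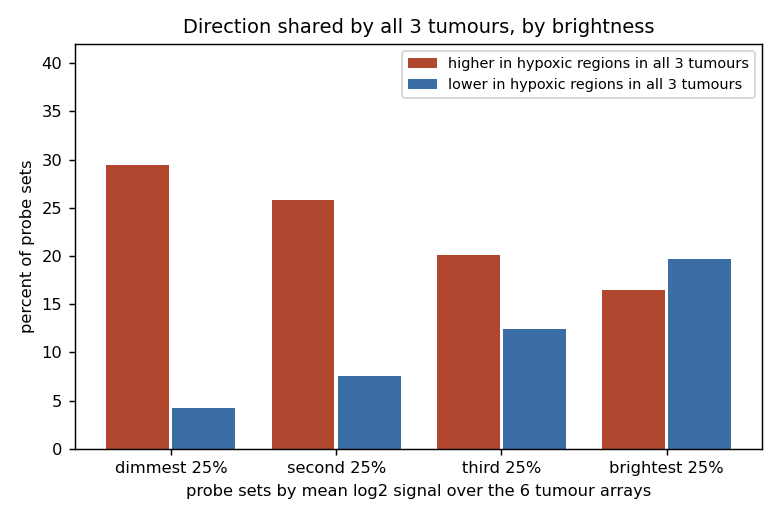
Share of probe sets (y axis, percent) higher (red bars) or lower (blue bars) in the hypoxic region of all 3 tumours, by 25% bin of mean log2 signal over the 6 tumour arrays (x axis). The share higher runs from 29.4% in the dimmest to 16.5% in the brightest bin, and the share lower from 4.24% to 19.7%.

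Ranked by the smallest of their 3 pair differences, the 15 leading genes higher in hypoxic regions were Bnip3, Atf3, Car9, Ndrg1, Aldoa, Ero1a, Vegfa, Hspb1, Pfkl, Pfkfb3, Fosl1, Actr3b, Egr1, Hmox1 and Nab2. Their hypoxic and normoxic arrays did not overlap in any case (15 of 15, beside 16.4% of all probe sets and 17.2% of genes), which the ranking favours, and their adjusted p in limma was 0.141 to 0.281. The other 3 genes at least 2-fold higher in all 3 pairs, chosen here after their values were seen, were Btg3, Phf23 and Lgals3.

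Bnip3 led this order, with differences of 4.12, 3.37 and 2.13 in tumours 1, 2 and 3 and a mean of 3.21 ± 0.37 (SE, n = 3; limma adjusted p = 0.145). Its other probe set gave 3.68, 2.36 and 1.96. The 3 hypoxic levels were close together, and the normoxic levels were spread out. Car9 differed by 1.83, 1.82 and 2.16, at a mean of 1.94 ± 0.19, the smallest adjusted p of the higher genes at 0.141. The promoters of both genes, given here because they share the HIF core motif ACGTG, are RefSeq sequences on build GRCr8 from 250 bases before to 50 after the gene start. Bnip3 lies on the minus strand at chr1:203154913-203155212 and Car9 on the plus strand at chr5:62558774-62559073. Capitals mark ACGTG on either strand, which in Bnip3 overlaps its own reverse complement.
Bnip3: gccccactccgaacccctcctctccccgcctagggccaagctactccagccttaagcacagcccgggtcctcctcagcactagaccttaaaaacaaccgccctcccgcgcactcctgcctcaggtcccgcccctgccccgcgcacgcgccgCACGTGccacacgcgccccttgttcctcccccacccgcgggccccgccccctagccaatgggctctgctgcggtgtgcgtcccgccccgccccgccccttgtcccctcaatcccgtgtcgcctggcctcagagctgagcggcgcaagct
Car9: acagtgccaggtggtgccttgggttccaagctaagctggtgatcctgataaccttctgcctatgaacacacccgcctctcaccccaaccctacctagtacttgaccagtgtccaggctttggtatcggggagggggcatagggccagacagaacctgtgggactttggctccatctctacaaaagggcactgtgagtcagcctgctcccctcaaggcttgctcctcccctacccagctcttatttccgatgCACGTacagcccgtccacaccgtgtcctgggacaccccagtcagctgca
Of the 11 leading genes with a promoter in the table, 4 (36.4%) held ACGTG on either strand, namely Bnip3, Car9, Egr1 and Pfkfb3. Of the leading genes lower in hypoxic regions 4 of 12 (33.3%) held it, and of all promoters of the same length 19.7% (5418 of 27457). The related motif GCGTG was in 45.5%, 33.3% and 31.1% of the same 3 sets. A match is a description of the letters only.

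Stress and AP-1 related transcription factors formed the second group. Atf3, a factor of the integrated stress response, stood at 7.77, 7.65 and 8.97 in hypoxic regions, against 5.65, 5.55 and 5.96 in normoxic regions, and averaged 2.41 ± 0.25 (SE; limma adjusted p = 0.145). Fosl1, a partner of JUN in AP-1, stood at 9.29, 9.33 and 9.34 in hypoxic regions and at 8.03, 8.18 and 8.14 in normoxic regions. Its differences of 1.26, 1.15 and 1.21 were nearly equal in the 3 tumours. Egr1, an immediate early factor, differed by 2.06, 1.35 and 1.12, and its corepressor Nab2 by 1.94, 1.17 and 1.08. Both differences were largest in tumour 1.

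Chaperone and heme genes were less even. Hspb1, a small heat shock protein, stood at 11.11, 10.85 and 10.17 in hypoxic regions and at 8.29, 8.27 and 8.90 in normoxic regions. Hmox1, the heme oxygenase, stood at 10.81, 10.05 and 9.58 in hypoxic regions and at 6.49, 8.93 and 7.30 in normoxic regions. The difference of Hmox1 was 4.33 in tumour 1 but 1.12 in tumour 2 and 2.29 in tumour 3, and its mean of 2.58 ± 0.56 (SE) was 1.71 without tumour 1. Ero1a, the oxidase of the endoplasmic reticulum, differed by 2.82, 1.35 and 1.99. Ndrg1, a stress-responsive gene named for its link to MYC proteins, differed by 1.64, 2.42 and 2.12.

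Enzymes of glycolysis made up a further group. Aldoa, the aldolase, stood at 11.78, 11.84 and 11.42 in hypoxic regions, against 10.29, 10.37 and 10.01 in normoxic regions, so that its differences were 1.50, 1.47 and 1.42. Pfkl, a phosphofructokinase, differed by 1.89, 1.32 and 1.16, and Pfkfb3, which makes its activator, by 1.23, 1.48 and 1.16. Outside glycolysis, the actin gene Actr3b, a homologue of the Arp3 subunit that starts actin branches, differed by 1.40, 1.54 and 1.13.

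**Figure D2:**
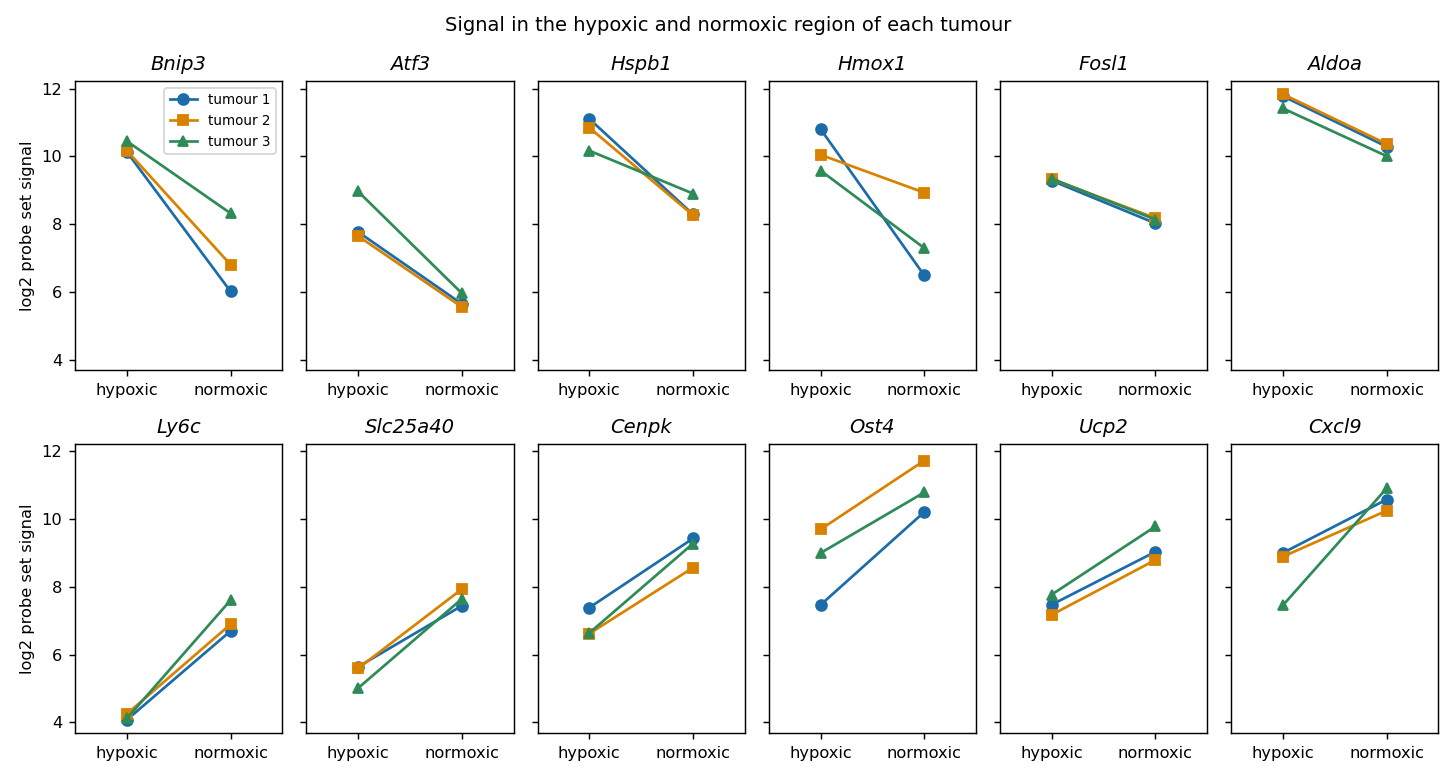
Log2 probe set signal (y axis) in the hypoxic (left) and normoxic (right) region of each of 3 tumours for 6 genes higher (top row) and 6 lower (bottom row) in hypoxic regions; lines join regions of one tumour. Fosl1 and Aldoa ran nearly parallel in the 3 tumours, whereas Hmox1 ranged from a difference of 4.33 in tumour 1 to 1.12 in tumour 2.

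The 15 leading genes lower in hypoxic regions were Ly6c, Cenpk, Slc44a2, Slc25a40, Ost4, Ucp2, Mms22l, Casp8ap2, Ogn, Idh1, Pcna, Leprotl1, Cxcl9, Mllt3 and Gimap7. The arrays of 14 of the 15 did not overlap between groups (beside the same 16.4% of all probe sets and 17.2% of genes), which the ranking favours here too, and their limma adjusted p was 0.141 to 0.251. Ly6c, a surface protein known in mouse from monocytes and lymphocytes, stood at 4.07, 4.25 and 4.11 in hypoxic regions, against 6.70, 6.90 and 7.61 in normoxic regions, a mean of -2.92 ± 0.24 (SE; limma adjusted p = 0.141). All 3 hypoxic values lay below the lower quartile of their array (5.30 to 5.41), so the fold rests on a dim signal. The hypoxic values of Mms22l, Cd3g, Hgf and Itga4 and the normoxic values of S100a8, named further on, also lay below that quartile in all 3 tumours. Slc44a2, a choline transporter-like protein, was uncertain: its probe set averaged -2.82 with overlapping groups, while its other probe set gave -0.63, 0.62 and -0.14.

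Several of these act in chromosome replication and segregation. Cenpk, a kinetochore protein, stood at 7.39, 6.62 and 6.64 in hypoxic regions and at 9.43, 8.57 and 9.28 in normoxic regions. Mms22l, which acts at stalled replication forks, differed by -1.89, -1.45 and -1.66. Casp8ap2, needed for histone mRNA processing, differed by -1.89, -1.57 and -1.43, and the sliding clamp Pcna by -1.91, -1.39 and -1.91. The hypoxic and normoxic arrays of all 4 genes were separate, beside 17.2% of all genes, which the ranking favours.

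Mitochondrial and metabolic genes formed another group. Slc25a40, a carrier that moves glutathione into mitochondria, stood at 5.64, 5.59 and 5.01 in hypoxic regions and at 7.44, 7.93 and 7.64 in normoxic regions, a mean of -2.26 ± 0.23 (SE; limma adjusted p = 0.141). Ucp2, another carrier of the inner membrane, stood at 7.47, 7.18 and 7.77 in hypoxic regions and at 9.04, 8.80 and 9.79 in normoxic regions. Idh1, the cytosolic isocitrate dehydrogenase that makes NADPH, stood at 5.69, 5.94 and 5.81 in hypoxic regions and at 7.59, 7.85 and 7.22 in normoxic regions. The groups of all 3 genes were separate, beside 17.2% of all genes, which the ranking favours. Ost4, a small subunit of the oligosaccharyltransferase, differed by -2.75, -2.03 and -1.79, and Ogn, the matrix proteoglycan osteoglycin, by -1.42, -1.64 and -1.73.

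Immune genes were among them. Cxcl9, an interferon-induced chemokine for T cells, stood at 9.01, 8.89 and 7.46 in hypoxic regions, against 10.58, 10.25 and 10.91 in normoxic regions. Its difference of -3.45 in tumour 3 was larger than the -1.58 and -1.36 of tumours 1 and 2. Gimap7, a GTPase of lymphocytes, differed by -1.83, -1.67 and -1.36, least in tumour 3. Mllt3, a chromatin reader of the elongation machinery, differed by -1.88, -1.36 and -2.28, and Leprotl1 by -1.38, -1.74 and -1.66.

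**Figure D3:**
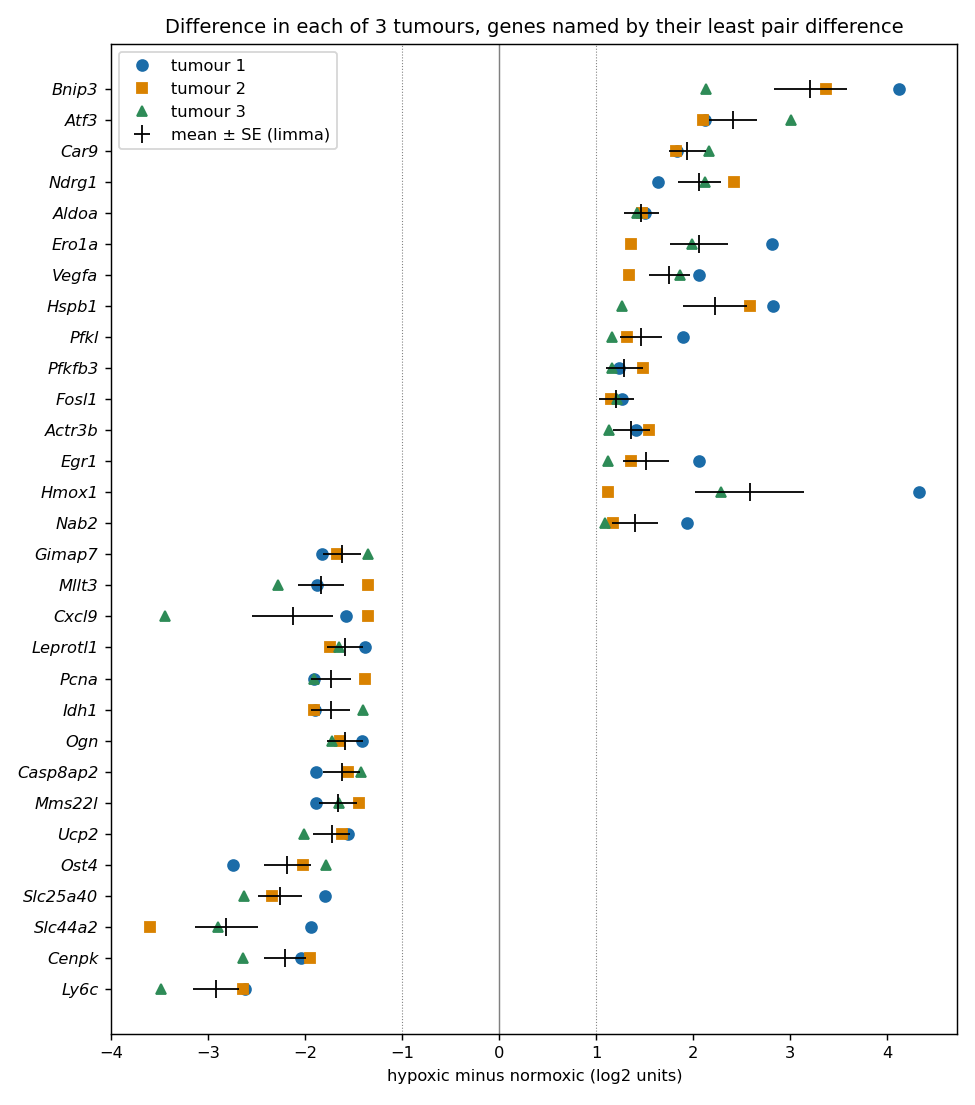
Hypoxic minus normoxic signal (x axis, log2 units) in tumours 1, 2 and 3 (symbols) for the genes named by their least pair difference (y axis), with the mean ± SE from limma (bars; n = 3). No gene is past an adjusted p of 0.05, and dotted lines mark 2-fold.

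Some genes differed in one tumour in the direction opposite to the others. In tumour 1, Pan3, a subunit of a poly(A) nuclease, differed by -3.75, against 1.05 and 0.14 in tumours 2 and 3, and Car5b, a mitochondrial carbonic anhydrase, by -3.27 against 0.87 and 0.30. In tumour 2, the coatomer subunit Copz1 differed by 2.59, against -0.51 and -1.21 in tumours 1 and 3, and Sap30bp by 2.48 against -0.65 and -1.05. In tumour 3, the Mediator kinase Cdk8 differed by -4.05, against 1.11 and 1.36 in tumours 1 and 2, and the proteasome subunit Psmb4 by -3.67 against 0.17 and 0.59. The other genes picked by the same rule were Mrps15 and Sc5d for tumour 1, Ndufb6 and Med14 for tumour 2, and Lsm5 and Micos13 for tumour 3. The groups of all 12 overlapped, as pair differences of opposite sign require.

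Gene lists outside the standard hypoxia and cell cycle sets were described by counts. Of all 14324 genes, 21.9% were higher and 13.2% lower in hypoxic regions in all 3 tumours, 3.27% and 7.06% at unadjusted p below 0.05, and the median difference was 0.0827. For each list described by members below, counts of members in the same direction in all 3 tumours are given first. No list member passed limma after adjustment (0 of 14324 genes, 0.0%).

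Genes of protein handling had more members lower than higher. Of 16 N-glycosylation genes 7 were lower and 1 higher in all 3 tumours, with a median of -0.60, but the medians of the 3 tumours were -0.168, -0.332 and -1.19. Beside Ost4, Alg5, which makes the dolichol-linked glucose donor, differed by -1.23, -0.77 and -1.20, and Mgat1, which starts complex glycans, by -0.63, -0.98 and -0.38. Of 19 proteasome genes 4 were lower and 0 higher in all 3, with a median of -0.449 that was -0.0897 without tumour 3. Among them Psmb1 differed by -0.67, -0.55 and -2.51, and Psma4 by -0.82, -0.13 and -1.15. Of 16 aminoacyl-tRNA synthetases 4 were lower and 0 higher, including Kars1 at -0.90, -0.07 and -1.44 and Rars1 at -0.78, -0.45 and -0.59. The synthetases had a median of -0.368 that was -0.135 without tumour 3. For the proteasome and synthetase lists the normoxic array of tumour 3, which stood apart, was the highest: the mean signal of the proteasome genes was 8.85, 8.92 and 8.61 in hypoxic regions and 9.04, 8.92 and 9.98 in normoxic regions.

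The 17 ribosomal protein genes had 1 higher and 0 lower in all 3 tumours, and their median of -0.147 was 0.0694 without tumour 3. Rps2 and Rpl13 have several other probe sets, and genes of this family have near-identical copies, so their values are uncertain. Splicing genes (4 lower, 2 higher of 16) included Sf3b1 at -0.77, -0.28 and -1.33 and Srsf2 at -0.82, -0.32 and -1.20. Of 17 genes of protein translocation and vesicle coats, 4 were lower and 3 higher in all 3. There Srp9, a subunit of the signal recognition particle, differed by -3.27, -2.23 and -0.23.

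Nuclear transport, actin and chromatin genes leaned the same way. Of 16 nuclear pore and import genes 5 were lower and 0 higher in all 3, with a median of -0.317 (-0.153 without tumour 3). Kpna2, an importin alpha, stood at 8.99, 8.84 and 8.72 in hypoxic regions and at 10.34, 10.19 and 10.49 in normoxic regions. Its partner Kpnb1 differed by -1.10, -1.23 and -0.46, and the pore protein Nup107 by -0.49, -0.97 and -1.81. Of 16 actin and Arp2/3 genes 7 were lower and 1 higher in all 3, with a median of -0.438 (-0.107 without tumour 3). The one member higher in all 3 was Actr3b; Arpc2 of the same complex differed by -0.64, -0.39 and -1.24, and cofilin (Cfl1) by -1.01, -0.10 and -1.44. Chromatin modifiers had 5 lower and 0 higher of 12 in all 3. On average 7 were lower and 5 higher, with a median of -0.124. They included Dnmt1, the maintenance methyltransferase, at -0.46, -0.93 and -0.42. Suv39h1, a histone methyltransferase, differed by -0.72, -0.55 and -0.28, though its other probe set gave -0.08, -0.13 and -0.68. Integrins had 5 lower and 2 higher of 12 in all 3, but 6 were lower and 6 higher on average, with a median of -0.0471. Among them Itgb5 differed by -0.79, -0.60 and -1.07 and Itga4 by -0.36, -0.83 and -1.60. Neither had overlapping groups, beside 17.2% of all genes without overlap, and naming members by smallest p favours this.

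Autophagy, TGF-beta, Notch and clock genes leaned the other way. Of 14 core autophagy genes 5 were higher and 1 lower in all 3 tumours, with a median of 0.462 that was 0.137 to 0.435 with a tumour left out. Atg16l1, which helps lipidate LC3, differed by 0.49, 0.55 and 0.44, Atg3 by 0.75, 0.28 and 0.61 and Atg14 by 0.69, 0.38 and 0.84. Of 13 TGF-beta and BMP genes 5 were higher and 0 lower, with a median of 0.261. The ligand Tgfb3 stood at 6.95, 8.63 and 8.79 in hypoxic regions and at 6.70, 7.19 and 6.66 in normoxic regions, and its receptor Tgfbr1 at 8.37, 8.72 and 9.14 in hypoxic regions and at 7.93, 7.81 and 8.01 in normoxic regions. Only Tgfbr1 of these 2 had separate groups, beside 17.2% of all genes. Of 14 Notch genes 6 were higher and 1 lower, including the ligand Jag1 at 0.77, 0.42 and 0.51 and the target Hey1 at 0.63, 0.33 and 0.42. The Notch median was 0.22, with 0.0668, 0.0821 and 0.449 in tumours 1, 2 and 3. Without tumour 3 it was 0.0892, beside a median of 0.0827 for all genes over the 3 tumours.

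Of 13 circadian clock genes 5 were higher and 1 lower in all 3. Their median was 0.162, with 0.45, 0.05 and 0.238 in tumours 1, 2 and 3. The dim olfactory receptor genes had a median of 0.158, with 14 of 53 higher in all 3. Bhlhe40, a repressor of the clock that is also a HIF target, stood at 10.69, 9.47 and 10.20 in hypoxic regions, against 7.85, 8.63 and 7.75 in normoxic regions. Its relative Bhlhe41 differed by 1.32, 0.41 and 1.22, and Bmal1 by 0.90, 1.39 and 0.07. Lipid storage genes had 4 higher and 1 lower of 15, a share higher not far from the 21.9% of all genes. Their median of 0.192 was 0.102 after quantile normalization. Among them the droplet coat protein Plin2 differed by 1.73, 1.51 and 0.24 and the acyltransferase Gpat3 by 0.53, 1.30 and 0.63. Intermediate filament genes had 6 higher and 1 lower of 13, with a median of 0.244 (0.0419 without tumour 3). There desmin (Des) differed by 0.63, 0.44 and 0.54, whereas Lmnb1, the lamin of dividing cells, differed by -1.04, -0.67 and -0.56.

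Single members stood out in other lists, whose counts are given as higher and lower in all 3 tumours. Amino acid transporters had 4 and 1 of 14, and growth factors and receptors 2 and 4 of 19. Prostaglandin and leukotriene genes had 3 and 1 of 15, mitochondrial carriers 0 and 3 of 12, and glial and gliosarcoma markers 2 and 0 of 9. The amino acid transporter chain Slc3a2 stood at 9.80, 9.16 and 9.06 in hypoxic regions and at 7.91, 8.41 and 8.15 in normoxic regions, while its partner Slc7a5 differed by -0.48, -0.49 and -0.13. Among growth factors and receptors, the EGF receptor ligand Hbegf differed by 0.94, 0.83 and 0.85, whereas Hgf differed by -0.60, -0.78 and -0.83 and its receptor Met by -0.62, -0.73 and -0.67. The inducible cyclooxygenase Ptgs2 differed by 0.93, 0.29 and 1.02 and the constitutive Ptgs1 by -0.71, -0.38 and -0.89. Of the 12 mitochondrial carriers 7 were higher and 5 lower on average, with a median of 0.0842 (-0.0946 without tumour 3). Beside Slc25a40, the adenine nucleotide carrier Slc25a5 was among the lower ones, at -0.75, -0.58 and -0.90. The stem cell transcription factor Sox2 differed by 0.65, 0.70 and 0.52. Its list of glial and gliosarcoma markers had 5 higher and 4 lower on average, with a median of 0.0537. The 22 lists not described by members had medians from -0.244 (heme and iron-sulfur cluster synthesis) to 0.21 (B and plasma cells).

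**Figure D4:**
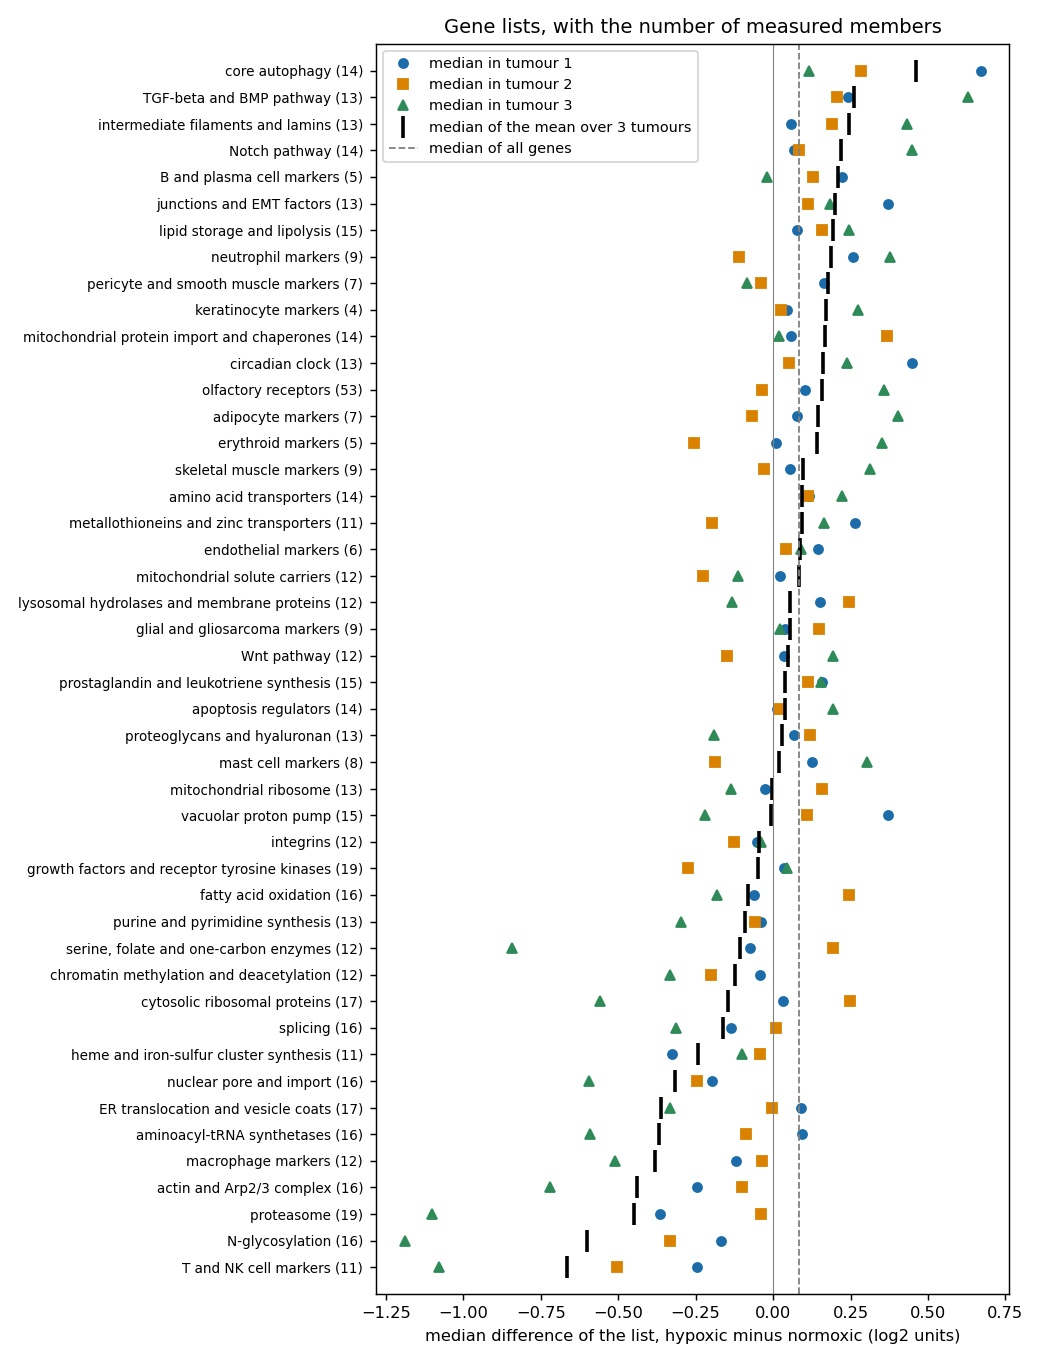
Median hypoxic minus normoxic difference (x axis, log2 units) of the measured members of each gene list (y axis, number of members in parentheses), for tumours 1, 2 and 3 (symbols) and for the mean over tumours (bars); the dashed line is the median of all genes at 0.0827. Tumour 3 lies lowest for the T and NK cell, N-glycosylation and proteasome lists.

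Markers of T and NK cells and of macrophages had more members lower than higher in hypoxic regions. A bulk sample cannot tell fewer cells of a type from less RNA per cell. Of 11 T and NK cell markers 8 were lower and 0 higher in all 3 tumours, with a median of -0.665 (-0.458 without tumour 3). Cd3d, a chain of the T cell receptor complex, stood at 5.46, 5.45 and 6.51 in hypoxic regions, against 7.83, 6.32 and 10.27 in normoxic regions, and Cd3g at 4.70, 4.25 and 4.20 in hypoxic regions against 6.27, 4.92 and 7.99 in normoxic regions. The highest value of each was in the normoxic region of tumour 3. The mean signal of the list was 6.07, 6.36 and 6.22 in hypoxic regions and 6.69, 6.58 and 7.81 in normoxic regions. Of 12 macrophage markers 4 were lower and 0 higher in all 3 and 9 were lower and 3 (C1qb, Cd68 and Cd163) higher on average, with a median of -0.383 (-0.149 without tumour 3). C1qa, a complement chain, stood at 8.51, 8.62 and 7.00 in hypoxic regions and at 9.43, 9.69 and 9.80 in normoxic regions, while C1qc differed by -0.998, -0.71 and 0.0038 and C1qb, the other chain, by 0.29, -0.28 and 0.28. All 9 neutrophil markers were higher on average, but 2 of the 9 were so in all 3 tumours, a share near the 21.9% of all genes. Their median was 0.187 (0.0554 without tumour 3), and S100a8 differed by -0.11, 0.67 and 2.79. Mean signals of neutrophil markers were low, at 5.48 to 5.96 in hypoxic and 5.24 to 5.45 in normoxic regions. The part of host cells in the other lists was not tested.

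The last comparison asked where the tumour response differed from that of 9L cells held at low oxygen in culture. In one fit of 18 arrays, 120 probe sets (0.439%) differed past an adjusted p of 0.05, with 8 higher in the tumour response (0.0292%) and 112 lower (0.409%), or 7 genes (0.0489%) and 72 genes (0.503%), 79 in all (0.552%). The higher and lower counts were 3 and 38 without tumour 1, 13 and 251 without tumour 2, and the higher count was 39 without tumour 3. The lower count was 169 without hypoxic culture 28 at 16 h and 73 without hypoxic culture 13 at 6 h. Whether cultures of a group were grown separately is not stated, and their p-values then reflect a spread that may be technical only. The fit did not pair hypoxic and normoxic cultures by the number in their titles. Without weights the higher and lower counts were 253 and 686, and with those numbers as a block 49 and 270. Of the 15 leading higher genes, 5 rose in the cultures at 6 h and 9 at 16 h by the same fit. Over all genes, 44 rose (0.307%) and 1 fell (0.00698%) at 6 h, and 126 rose (0.88%) and 20 fell (0.14%) at 16 h. Over all probe sets, 0.208% rose and 0.011% fell after 6 h, and 0.676% rose and 0.095% fell after 16 h. Of the 15 leading lower genes 0 passed that test in the cultures at either time. In the contrast 13 of them differed from the culture response, beside 0.552% of all genes. The tumour difference that ranked them is part of that contrast, which favours this count.

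Atf3 had the largest positive difference of responses among the genes past the threshold. It was 2.41 higher in hypoxic tumour regions, against culture differences of -0.21 at 6 h and -0.20 at 16 h, and the responses differed by 2.61 ± 0.24 (SE; limma adjusted p = 9.14e-05). Plau, the urokinase protease, was at 1.10 in tumours and at -0.55 (6 h) and -0.78 (16 h) in cultures, a difference of 1.77 ± 0.33 (limma adjusted p = 0.0270). Bnip3 rose in cultures too, by 1.64 and 1.42, but its tumour response was larger by 1.67 ± 0.30 (limma adjusted p = 0.0240). Gnao1, a G protein subunit, and Vapa, a tether of the endoplasmic reticulum, were higher in tumours by 1.39 and 1.23 and close to 0 in cultures. With a tumour left out these 4 differences kept their sign but lost the call: Plau without tumour 1, 2 or 3 (1.50 to 2.10), and Bnip3 (1.22 and 1.59), Gnao1 (1.49 and 1.11) and Vapa (1.48 and 1.17) without tumours 1 and 2. Gnao1 also lost it without normoxic culture 22 at 16 h or hypoxic culture 13 at 6 h (1.43 and 1.45). Bnip3 had an adjusted p of 0.0520 in limma with culture numbers as a replicate block and no weights.

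On the other side were Slc44a2, Ly6c, Slc25a40, Cenpk and Cd3d. Slc44a2 is uncertain, since its other probe set gave tumour differences of -0.63, 0.62 and -0.14. The tumour response minus the culture response was -2.80 ± 0.24 (SE) for Ly6c, -2.41 ± 0.21 for Slc25a40 and -2.39 ± 0.24 for Cenpk (limma adjusted p = 9.14e-05, 9.14e-05 and 0.000163). In cultures, Ly6c, Slc25a40 and Cenpk differed by -0.05, -0.0014 and 0.12 after 6 h and by -0.19, 0.30 and 0.24 after 16 h. Cd3d, a T cell gene, differed by -2.36 ± 0.41 (limma adjusted p = 0.0174), a call that was lost without tumour 1 (-2.34) or tumour 3 (-1.65) and with that block (adjusted p = 0.0513). Cultures hold no T cells, and Cd3d differed there by 0.09 at 6 h and -0.03 at 16 h. Its contrast is thus nearly the tumour difference of -2.33, which had an adjusted p of 0.280 in the paired limma test. Eif4e3, a cap-binding protein chosen after its values were seen, was -0.93 in tumours and rose by 0.79 in cultures at 16 h (limma adjusted p = 0.00934). Car9 and Vegfa did not differ past the threshold, at 0.36 ± 0.35 and 0.61 ± 0.58 (limma adjusted p = 0.802 and 0.795).

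Across genes, the tumour difference correlated with the culture difference at r = 0.220 (6 h) and 0.121 (16 h), over 14324 genes that are not independent replicates. Of 44 genes that rose in culture at 6 h, 27 were higher in all 3 tumours, and of 126 at 16 h, 62 were. Of 20 genes that fell at 16 h, 11 were lower in all 3 tumours. Over all genes, the shares were 21.9% and 13.2%.

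**Figure D5:**
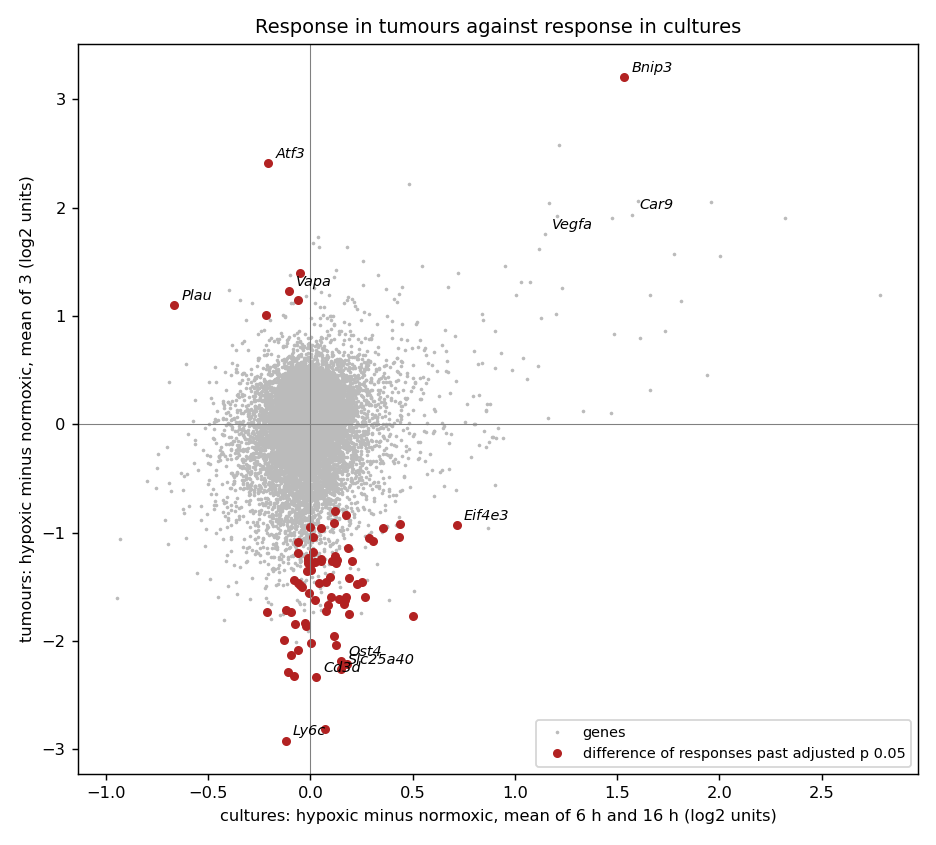
Hypoxic minus normoxic difference of each gene in tumours (y axis, mean of 3, log2 units) against that in cultures (x axis, mean of 6 h and 16 h); red points are genes whose responses differ past an adjusted p of 0.05 in limma. Atf3 lies high with no culture difference, Bnip3 is high in both, and most red points lie below 0 in tumours near 0 in cultures.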

How the data were processed

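The authors deposited log2 signals of 18 arrays, which the submitters' processing notes credit to RMA and Partek 6.5b, and these were used unchanged. Whether all arrays were normalized together is not stated. Of 27363 probe sets, 15097 carry 1 gene symbol and 12266 do not, of which 323 list several. The probe set with the highest mean over 18 arrays stood for a gene with several, which left 14324 genes. Regions were compared with limma 3.58.1 in R 4.3.3 (lmFit and eBayes, two-sided, Benjamini-Hochberg over all probe sets, threshold 0.05) on the 6 tumour arrays, blocked by tumour, since both regions come from one tumour. Same-tumour arrays correlated at 0.128, 0.0357 and 0.273 in their deviations from the group means. Arrays of different tumours correlated at -0.242 to 0.167, the highest for normoxic 2 with hypoxic 1, above the same-tumour values of tumours 1 and 2. The difference from cultures was a contrast over 18 arrays with array weights by tumour or culture. Cultures entered it as 4 group means, so the numbers shared by titles of hypoxic and normoxic cultures were not used as pairs. The number of arrays limits the precision. The fit was tested on simulated data with independent noise and 200 changed probe sets. It recovered 0, 2, 72.4 and 97.8% of differences of 0.5, 1, 2 and 4 log2 units, with 5.41% false among calls. Named genes are the 15 per direction with the largest least pair difference among genes brighter than the median probe set in one group, 4 per tumour that differ most from the other tumours, the 3 members of a described list with the smallest p, and the 5 per direction with the largest tumour minus culture difference. Members, lists and rules were chosen with earlier results of these data known. The 46 fixed lists hold 638 members, 563 of them measured; lists have no test of their own.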

Additional observations from a re-analysis of the deposited data

Results flagged for a closer look

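Responses that differ between tumours and cultures, by the contrast of 18 arrays in limma (adjusted p under 0.05), were found for 120 probe sets. Among the named genes, the tumour response was higher for Atf3 (2.61), Plau (1.77), Bnip3 (1.67), Gnao1 (1.44) and Vapa (1.33). It was lower for Slc44a2 (-2.89), Ly6c (-2.8), Slc25a40 (-2.41), Cenpk (-2.39), Cd3d (-2.36), Ost4 (-2.34), Cxcl9 (-2.03), Leprotl1 (-1.86), Mllt3 (-1.81), C1qa (-1.77), Mms22l (-1.75), Ogn (-1.69), Gimap7 (-1.64), Pcna (-1.64) and Ucp2 (-1.52). The value of Slc44a2 is uncertain, since its other probe set gave tumour differences of -0.63, 0.62 and -0.14. Cultures hold 9L cells without host cells, whereas Cd3d, Cxcl9, Gimap7, Ly6c and C1qa are genes of immune cells; whether host cells have a part in these differences was not tested.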

How the results depend on the processing

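In the tumour comparison, probe sets past the threshold numbered 0 higher and 0 lower both with and without the replicate block. They were 3 and 19 with trended and robust variance, 1106 and 1524 with 18 arrays and 1 spread, 49 and 251 with 18 arrays weighted by tumour or culture, and 0 to 154 higher and 0 to 409 lower with one tumour left out, the highest without tumour 1. Without the dimmest 25% the count of lower calls was 1. The tumour minus culture response had 253 higher and 686 lower without weights, and 49 and 270 with the replicate block and no weights. With one array or tumour left out it had 3 to 39 higher and 38 to 251 lower. At least 1.5-fold differences in all pairs were 107 higher and 396 lower, and 2-fold differences 78 to 108 and 199 to 397 with a tumour left out. With a tumour left out the rule covers 2 pairs, which is looser, so these counts cannot fall below those of 3 pairs.

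List medians after quantile normalization were 0.1018 for lipid storage, 0.0131 for prostaglandin synthesis and -0.0133 for endothelial markers, and prostaglandin synthesis was -0.0070 after median centring. With a tumour left out, medians were 0.1373 to 0.4351 for core autophagy, -0.6074 to -0.1528 for nuclear pore, -0.2932 to -0.0468 for translocation and vesicle coats, 0.0505 to 0.1662 for amino acid transporters, 0.1949 to 0.2797 for lipid storage, -0.0946 to 0.1347 for mitochondrial carriers, -0.6827 to -0.1066 for actin, 0.0419 to 0.3291 for intermediate filaments, 0.1425 to 0.4009 for the circadian clock, -0.0992 to 0.0916 for apoptosis, 0.0418 to 0.0863 for prostaglandin synthesis, 0.0539 to 0.2744 for B and plasma cells, 0.0817 to 0.1693 for endothelium and 0.0456 to 0.1509 for glial markers. Rps14 lay at -1.42 to 0.1534 with a tumour left out, above 0 without tumour 3 alone. Of 102 genes tested in tumours, 9 passed with trended variance, 83 with 1 spread, 36 with weights and 43 without tumour 1. They were named mainly by their differences or p in the same data, which favours these counts. Of all 27363 probe sets, the higher and lower calls in these 4 settings were 3 and 19, 1106 and 1524, 49 and 251, and 154 and 409. The fit with 1 spread treats tumours and cultures as equally variable. Of 10 genes that differed from cultures, 5, 4 and 2 lost the call without tumours 1, 2 and 3, 2 with the replicate block, and 1 without each of normoxic culture 22 at 16 h and hypoxic culture 13 at 6 h. Leaving out culture arrays was added after seeing the data.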
